A study of Homo sapiens with 12 samples.

Results

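NFE2L2 (also called NRF2) is the transcription factor that turns on the antioxidant response, and the 10 genes described here are NFE2L2 itself, its inhibitor KEAP1, the antioxidant genes NQO1, HMOX1, GCLC, GCLM, TXNRD1 and SRXN1, and the redox genes TXNIP and GPX4. They were picked by name, without a threshold on any value, but with earlier results of these data known. They make up 10 of the 22784 gene symbols with values. RNA-seq was performed in SK-UT-1 cells, an established cell line from a human uterine leiomyosarcoma (uLMS), after 48 h with the DMSO vehicle, with 5 µM JQ1 or with 5 µM I-BET 762. Both compounds are BET inhibitors (BETis), which keep the bromodomains of BET proteins from binding acetylated histones. Values were analysed for 3 of 4 DMSO libraries (replicates 13, 14 and 15), 4 of 4 JQ1 libraries (replicates 17 to 20) and 3 of 4 I-BET 762 libraries (replicates 21, 22 and 23). DMSO replicate 16 and I-BET 762 replicate 24 are not analysed here, and according to the methods of the study outlier samples had been removed. No source used here says that the libraries came from separate cultures, so the p-values measure only the spread between these samples of 1 cell line, which may be technical.

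In unstressed cells KEAP1 holds NFE2L2 and hands it to a CUL3 ubiquitin ligase for degradation. Oxidants and electrophiles modify cysteines of KEAP1, NFE2L2 then accumulates, pairs with a small MAF protein and binds antioxidant response elements near genes for glutathione synthesis, quinone and heme breakdown and the thioredoxin system. Much of this control acts on NFE2L2 protein, and protein was not measured in these libraries. In tumour cells the pathway is known for protection against oxidative damage and against drugs. GPX4 and TXNIP are close to the pathway rather than classical targets: GPX4 repairs oxidized membrane lipids with glutathione, and TXNIP, a gene driven by MondoA, blocks thioredoxin.

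The consensus core of the antioxidant response element is TGACNNNGC. It was searched on both strands in the 1000 bases before each RefSeq transcription start, and stretches from 5 of the genes are shown because they are among the places where the letters of that element occur. Of the 10 genes, 9 had an entry in the RefSeq promoter table of GRCh38.p14, with 15 starts among them, and HMOX1 had none. The letters were present within 250 bases of 4 of these 15 starts, from 3 genes, and within 1000 bases of 8 of the 15 starts, from 6 genes. Among 35116 starts of all genes 10.9% had them within 250 bases and 31.9% within 1000 bases. Starts of 1 gene can share sequence, so the 15 are not independent. Each stretch below is 29 bases long, runs 5′ to 3′ on the strand of the gene, and has the match in capitals. A match read as TGACNNNGC lies on the strand of the gene and one that begins with GC and ends with GTCA lies on the opposite strand.
NQO1: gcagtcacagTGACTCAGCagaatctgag
GCLM: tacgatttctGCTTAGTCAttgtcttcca
GCLC: acaggtcattGCTCTGTCAacacatattt
TXNRD1, first start: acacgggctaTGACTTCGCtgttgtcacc
TXNRD1, second start: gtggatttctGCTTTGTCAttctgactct
KEAP1, farther match: acttttattgTGACACGGCgggcgcccgg
KEAP1, nearer match: gcccggctctGCTTAGTCAtggtgacctg

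The NQO1 stretch is at chr16:69726997-69727025 on the minus strand, and its match begins 455 bases before the start. In Gencode V44 the stretch overlaps an exon of the divergent transcript NQO1-DT. It carries TGACTCAGC, which also holds the AP-1 motif TGACTCA and occurred within 1000 bases of 1.42% of all starts. The GCLM stretch is at chr1:93909446-93909474 on the minus strand, and its match begins 34 bases before the RefSeq start. Its part nearest the start overlaps the UTR of a longer Gencode transcript. The rest lies upstream of the annotated gene, whose 5′ end is at chr1:93909456. The GCLC stretch is at chr6:53545953-53545981 on the minus strand, 870 bases before the start, with no Gencode exon there. The TXNRD1 stretches are at chr12:104215670-104215698 and chr12:104286920-104286948 on the plus strand, 99 and 102 bases before their own starts. The second TXNRD1 stretch overlaps annotated UTR of TXNRD1. The KEAP1 stretches are at chr19:10502807-10502835 and chr19:10502784-10502812 on the minus strand, 54 and 31 bases before one of its starts. Both overlap annotated UTR of KEAP1. Each of these stretches occurs 1 time in the genome. No match was found in these windows for NFE2L2, TXNIP or SRXN1. These are matches of letters, and binding of NFE2L2 was not measured.

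Each library held between 35564586 and 39658989 reads on genes. Values are normalized counts, the read count divided by the size factor of the library, and 3 reads, the upper limit that a count of 0 allows, correspond to 2.73 to 3.30 normalized counts, covering counting error only. Total normalized counts were higher with JQ1 (39218686 to 41845407) than with DMSO (34444558 to 35683740), with I-BET 762 between them (37196649 to 37829697). HEXIM1, an inhibitor of the elongation factor P-TEFb that commonly rises under BET inhibition, was 1.53 (log2) higher with JQ1 and 1.05 higher with I-BET 762. Of 8 smooth muscle markers 7 were in the table, MYOCD was near 0, and their summed level was 20340 to 20968 in DMSO libraries, 10619 to 11229 in JQ1 libraries and 11758 to 12327 in I-BET 762 libraries. DES, CNN1, TAGLN, ACTA2 and CALD1 fell with both compounds and SMTN was not called, and the part of this shift in the results below was not tested. Summed leukocyte and endothelial markers were at most 7.40, so their defining genes were near 0, while the summed level of 4 epithelial markers was 470 to 531 with DMSO and 271 to 343 with a BETi. JQ1 replicate 18 had the highest total normalized count, and among the JQ1 libraries it was the highest for 6 of the 10 genes and the lowest for 3. Fewer cells and less RNA per cell cannot be told apart in such libraries.

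Differences were tested with limma on log2 of the normalized count plus 1, and a gene was called changed at a Benjamini-Hochberg adjusted p under 0.05 over 14839 tested symbols together with a fold change over 1.5. All 10 genes entered the test. Because they were chosen with earlier results of these data known, the shares of all symbols beside their counts are a description only. With JQ1, 7 of the 10 were called, where 36.1% of all tested symbols were called. GCLC, GPX4, NQO1, HMOX1, TXNRD1 and TXNIP rose and KEAP1 fell, against 13.3% of symbols called higher and 22.8% called lower. I-BET 762 changed 4 of the 10, where 26.9% of all symbols were called. GCLC, TXNRD1 and TXNIP rose and KEAP1 fell, against 8.96% higher and 17.9% lower. The same 3 genes rose with both compounds, as 7.86% of symbols did, and KEAP1 fell with both, as 16.7% did. GPX4, NQO1 and HMOX1 were called with JQ1 alone, and 0 genes were called in opposite directions. The median log2 fold change of the 10 genes was 0.74 with JQ1 and 0.17 with I-BET 762, beside 0.0076 and -6e-04 for all tested symbols. By adjusted p alone 9 of the 10 passed with JQ1, beside 71.7% of all symbols, and 6 of the 10 with I-BET 762, beside 61.1%. The JQ1 and DMSO libraries did not overlap for 9 genes, 8 higher and 1 lower, beside 68.4% of all symbols (34.1% higher and 34.3% lower). The I-BET 762 and DMSO libraries did not overlap for 7 genes, 6 higher and 1 lower, beside 71% of all symbols (34.8% higher and 36.2% lower), so that count was close to the background. Both comparisons use the same DMSO libraries.

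**Figure D1:**
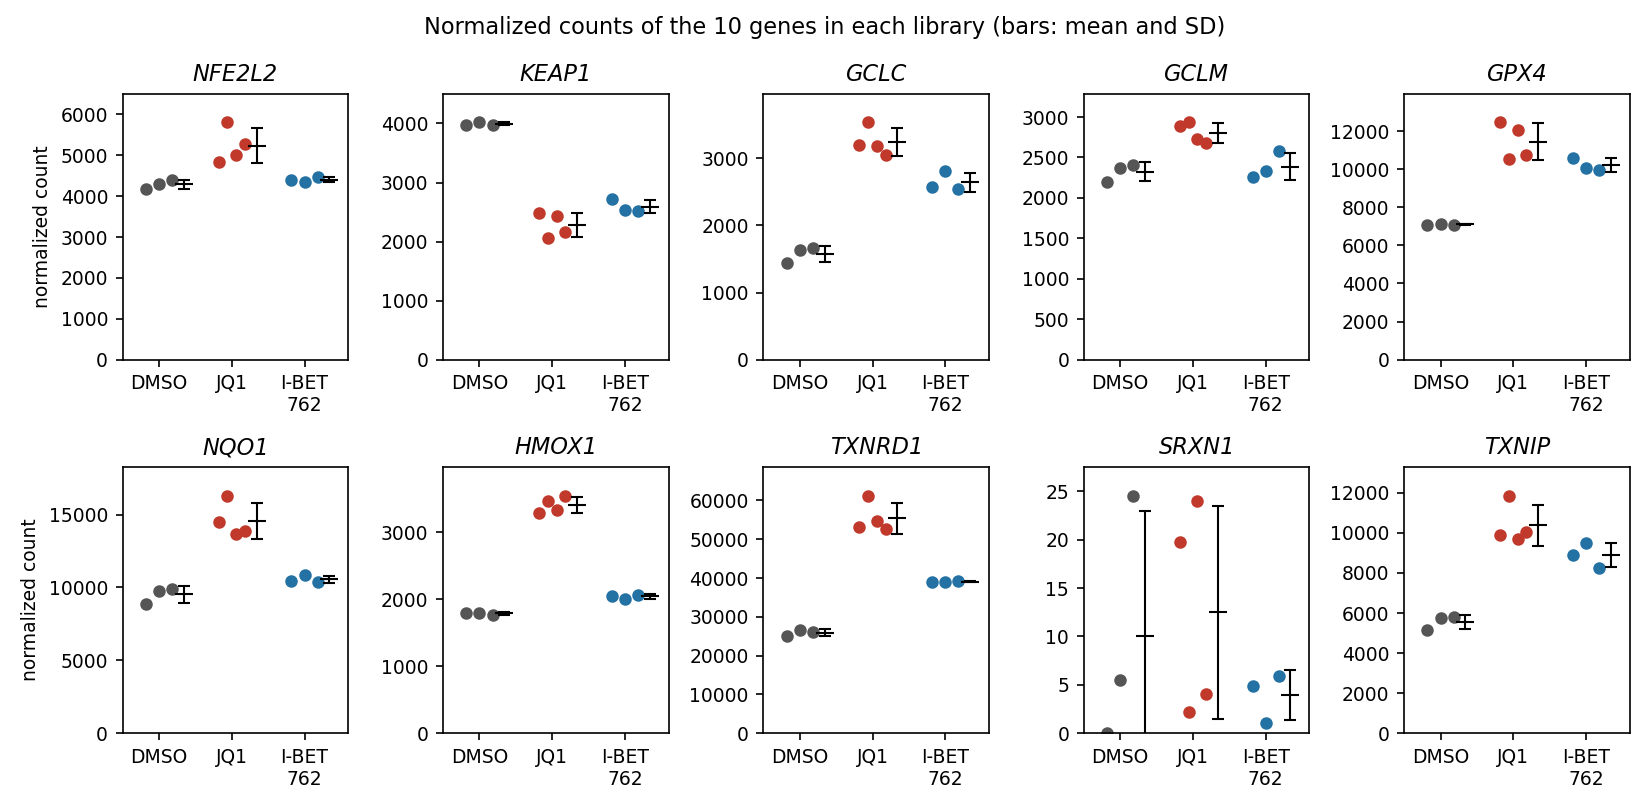
Normalized counts (y axes, each starting at 0 with its own scale) of the 10 genes in each DMSO, JQ1 and I-BET 762 library. Points are libraries and bars are the mean with SD. KEAP1 sits lower in every treated library. GCLC, NQO1, HMOX1, TXNRD1, TXNIP and KEAP1 separate all 3 groups. SRXN1 stays below 25 normalized counts, with a DMSO bar that runs below 0.

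The plot of normalized counts by library shows the size and the spread of each gene, and it starts with the regulators. NFE2L2 (ENSG00000116044.17, hg38 chr2:177218667-177392756, minus strand) had 4173, 4305 and 4398 normalized counts in the DMSO libraries, 4837, 5815, 5001 and 5276 in the JQ1 libraries, and 4405, 4344 and 4467 in the I-BET 762 libraries. All 4 JQ1 libraries were above both other groups, whose ranges overlapped. The log2 difference between JQ1 and DMSO was 0.28 (SE 0.06, adjusted p = 0.000302), a 1.22-fold difference that passed the p threshold but not the fold threshold, so NFE2L2 was not called. For I-BET 762 it was 0.04 (95% interval -0.09 to 0.17, adjusted p = 0.606). When libraries were rescaled to equal totals, which moved the median of all symbols by -0.18 with JQ1, the difference was 0.10 with adjusted p = 0.0672. Of the exon bases of NFE2L2, 23.4% overlap HNRNPA3 on the other strand and 13.6% overlap a long noncoding RNA on the same strand. The kit marked strand, but the strand setting of the counting is not given in the sources used here. HNRNPA3 itself differed by 0.22 with each compound and was not called.

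KEAP1 (ENSG00000079999.14, chr19:10486125-10503558, minus strand), the adaptor that sends NFE2L2 to degradation, had 3975, 4024 and 3979.6 normalized counts with DMSO. It fell to 2489, 2054, 2427 and 2155 with JQ1 and to 2728, 2526 and 2523 with I-BET 762. The treated and DMSO libraries did not overlap, and all JQ1 libraries were below the I-BET 762 libraries. The log2 fold change was -0.81 (SE 0.06, adjusted p = 1.01e-08) with JQ1 and -0.62 (SE 0.07, adjusted p = 9.15e-07) with I-BET 762, which left 0.570 and 0.649 of the DMSO level. KEAP1 was the only one of the 10 genes called lower. It was called lower with each compound under every scaling tried and without any single library.

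Glutathione is made in a first, rate-limiting step by glutamate-cysteine ligase, whose catalytic subunit is GCLC and whose modifier subunit is GCLM. GCLC (ENSG00000001084.13, chr6:53497341-53616970, minus strand) had 1444, 1633 and 1657 normalized counts with DMSO, 3192, 3540.4, 3176 and 3048 with JQ1, and 2574, 2809 and 2549.6 with I-BET 762. The 3 groups did not overlap. Noncoding RNAs share 6.1% of the exon bases of GCLC on the same strand and 3.5% on the other. GCLC rose by 1.04 (SE 0.06, adjusted p = 5.84e-10), or 2.05-fold, with JQ1 and by 0.75 (SE 0.07, adjusted p = 1.31e-07), or 1.68-fold, with I-BET 762.

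GCLM (ENSG00000023909.10, chr1:93885199-93909456, minus strand) was not called with either compound. Its normalized counts were 2192, 2372 and 2409 with DMSO, 2885.5, 2939, 2723 and 2683 with JQ1, and 2255, 2327 and 2582 with I-BET 762. The JQ1 libraries lay above all others, and the I-BET 762 libraries overlapped DMSO. The log2 difference from DMSO was 0.27 (SE 0.06, adjusted p = 0.000535) with JQ1, below the fold threshold, and 0.04 (95% interval -0.09 to 0.17, adjusted p = 0.616) with I-BET 762. At equal totals the JQ1 difference was 0.09 with adjusted p = 0.167, and the I-BET 762 difference was -0.06.

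GPX4 (ENSG00000167468.20, chr19:1103982-1106791, plus strand), the selenoprotein that uses glutathione to reduce lipid hydroperoxides, had 7083, 7125 and 7093 normalized counts with DMSO. Treated libraries were all higher, at 12480.4, 10522, 12043 and 10772 with JQ1 and 10612, 10086 and 9950.4 with I-BET 762, and the treated groups overlapped each other. GPX4 rose by 0.69 (SE 0.06, adjusted p = 2.33e-08) with JQ1. With I-BET 762 the log2 difference was 0.52 (SE 0.06, adjusted p = 2.08e-06), or 1.44-fold, just under the fold threshold. The JQ1 call was lost at equal totals, where the value was 0.50.

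The quinone reductase gene NQO1 and the heme oxygenase gene HMOX1 were both called with JQ1 and not with I-BET 762. NQO1 (ENSG00000181019.13, chr16:69706996-69726668, minus strand) had 8873, 9780.3 and 9898 normalized counts with DMSO, 14466, 16305, 13650.0 and 13836 with JQ1, and 10421, 10837 and 10387 with I-BET 762. The I-BET 762 libraries lay close above DMSO and the JQ1 libraries lay apart from both. NQO1 rose by 0.61 (SE 0.06, adjusted p = 1.77e-07), or 1.53-fold, with JQ1, and the difference with I-BET 762 was 0.15 (95% interval 0.01 to 0.29, adjusted p = 0.0559). The JQ1 value was close to the fold threshold, and the call ended without DMSO replicate 13 (0.56), without JQ1 replicate 18 (0.56), at equal upper quartiles (0.55) and at equal totals (0.43). A noncoding RNA on the other strand covers 19.4% of the exon bases of NQO1.

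HMOX1 (ENSG00000100292.18, chr22:35380361-35394214, plus strand), which opens heme to give biliverdin, carbon monoxide and iron, had 1794, 1798 and 1767 normalized counts with DMSO, 3289.9, 3468, 3324 and 3547 with JQ1, and 2047, 2006 and 2069 with I-BET 762. The 3 groups were fully apart and replicates were tight. HMOX1 rose by 0.93 (SE 0.05, adjusted p = 4.29e-11), or 1.91-fold, with JQ1. Its difference with I-BET 762 was 0.19 (SE 0.05, adjusted p = 0.00293), or 1.14-fold, which was not called.

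TXNRD1 (ENSG00000198431.18, chr12:104215779-104350307, plus strand), the cytosolic thioredoxin reductase, had 25141, 26722 and 25954 normalized counts with DMSO, 53102, 61264, 54762 and 52637 with JQ1, and 39058, 39072 and 39138 with I-BET 762. The 3 groups did not overlap, and the I-BET 762 libraries lay between the others. TXNRD1 rose by 1.09 (SE 0.06, adjusted p = 7.78e-11), or 2.13-fold, with JQ1 and by 0.59 (SE 0.06, adjusted p = 4.64e-07), or 1.51-fold, with I-BET 762. The I-BET 762 value sat on the fold threshold and the call ended without DMSO replicate 13 (0.57), at equal upper quartiles (0.56) and at equal totals (0.50).

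TXNIP (ENSG00000265972.6, chr1:145992435-145996579, minus strand), which binds and blocks thioredoxin, had 5168, 5752 and 5778 normalized counts with DMSO, 9907, 11869, 9698 and 10029 with JQ1, and 8913, 9493 and 8265 with I-BET 762. Every treated library was above DMSO, and all JQ1 libraries were above the I-BET 762 libraries. JQ1 replicate 18 stood above the other JQ1 libraries. TXNIP rose by 0.90 (SE 0.07, adjusted p = 1.03e-08) with JQ1 and by 0.68 (SE 0.07, adjusted p = 1.15e-06) with I-BET 762. At equal totals the I-BET 762 value was 0.58 and was not called.

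SRXN1 (ENSG00000271303.2, chr20:646615-653200, minus strand), sulfiredoxin, which restores overoxidized peroxiredoxins, could not be judged. Its counts were 0, 6 and 27 reads with DMSO, 18, 2, 24 and 4 reads with JQ1, and 5, 1 and 6 reads with I-BET 762. The groups overlapped and 3 libraries were under the limit of 3 reads. The log2 difference was 0.79 (95% interval -1.20 to 2.79, adjusted p = 0.46) with JQ1 and -0.34 (95% interval -2.47 to 1.79, adjusted p = 0.784) with I-BET 762. The JQ1 value turned to -0.44 without DMSO replicate 13, and the I-BET 762 value to 0.76 without DMSO replicate 15 and to 0.21 without I-BET 762 replicate 22. A readthrough gene covers 90.7% of the 2528 exon bases of SRXN1 on the same strand, leaving 236 of its own, and how the counting treated reads on shared bases is not given in the sources used here.

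**Figure D2:**
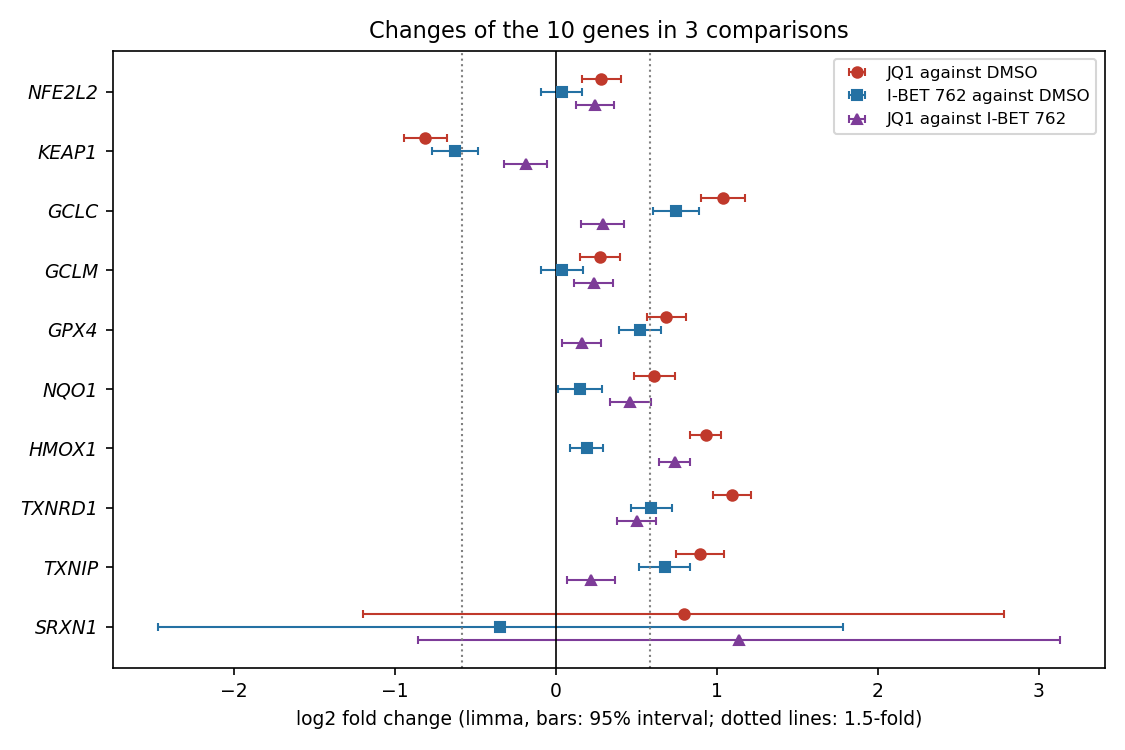
Log2 fold change (x axis) of the 10 genes for JQ1 against DMSO, I-BET 762 against DMSO and JQ1 against I-BET 762, with 95% intervals from limma. Dotted lines mark a 1.5-fold change. KEAP1 alone lies left of 0 in all 3 comparisons, JQ1 values exceed I-BET 762 values for HMOX1, TXNRD1 and NQO1, and the SRXN1 intervals cross 0.

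JQ1 and I-BET 762 were compared directly at their matched dose of 5 µM and time of 48 h, the only pair of compounds in the series. JQ1 is a thienotriazolodiazepine and I-BET 762 a triazolobenzodiazepine, so a thiophene ring in the first takes the place of a benzene ring in the second, among other differences. HMOX1 was the 1 gene of 10 called, where 5.31% of all tested symbols were called, 1.73% higher and 3.59% lower with JQ1. It was 0.74 higher with JQ1 (95% interval 0.64 to 0.84, adjusted p = 6.11e-08), or 1.67-fold, and HMOX1 was called under each alternative that kept the 1.5-fold threshold. The plot of changes shows TXNRD1 and NQO1 next. TXNRD1 was 0.50 higher with JQ1 (95% interval 0.38 to 0.62, adjusted p = 1.51e-05) and NQO1 0.46 higher (95% interval 0.33 to 0.59, adjusted p = 5.58e-05), neither past the fold threshold.

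Smaller differences between the compounds also passed the p threshold without the fold threshold. GCLC was 0.29 higher with JQ1 (95% interval 0.16 to 0.43), NFE2L2 0.24 (0.13 to 0.36), GCLM 0.23 (0.11 to 0.36) and TXNIP 0.22 (0.07 to 0.37). GPX4 was 0.16 higher (95% interval 0.04 to 0.28, adjusted p = 0.0468) with overlapping groups, and KEAP1 was lower with JQ1, at -0.19 (95% interval -0.32 to -0.05, adjusted p = 0.0376). By adjusted p alone 9 of 10 genes differed between the compounds, beside 27.3% of all symbols, and SRXN1 did not (1.14, 95% interval -0.85 to 3.13, adjusted p = 0.397). JQ1 libraries lay wholly above I-BET 762 libraries for 7 genes and wholly below for 1, where 17.5% and 16.3% of all symbols did so (33.8% in either direction).

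Ratios of genes within a library do not depend on the scaling of the library, and 3 were formed after the values had been seen. The log2 ratio of NFE2L2 to KEAP1 was 0.07, 0.10 and 0.14 in the DMSO libraries, 0.96, 1.501, 1.04 and 1.29 in the JQ1 libraries, and 0.69, 0.78 and 0.82 in the I-BET 762 libraries. All 3 groups were apart. The ratio was 2.14 times the DMSO ratio with JQ1 (exact permutation test, two-sided, p = 0.0571) and 1.58 times with I-BET 762 (exact permutation p = 0.1), in each case the smallest p that these group sizes allow. The mean log2 ratio of GCLC to GCLM was -0.56 ± 0.04 in 3 DMSO libraries (mean ± SD), 0.21 ± 0.05 in 4 JQ1 libraries and 0.15 ± 0.15 in 3 I-BET 762 libraries. Thus GCLC RNA gained on GCLM RNA 1.70-fold with JQ1 (exact permutation p = 0.0571) and 1.63-fold with I-BET 762 (exact permutation p = 0.1). Each was again the smallest p that the group sizes allow. The treated groups overlapped each other (exact permutation test, two-sided, p = 0.686). The mean log2 ratio of TXNRD1 to TXNIP was 2.22 ± 0.06 in the DMSO libraries, 2.42 ± 0.06 in the JQ1 libraries and 2.14 ± 0.10 in the I-BET 762 libraries (mean ± SD). JQ1 libraries were above both other groups (exact permutation p = 0.0571 in each case), and the I-BET 762 and DMSO libraries overlapped (exact permutation p = 0.3).

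**Figure D3:**
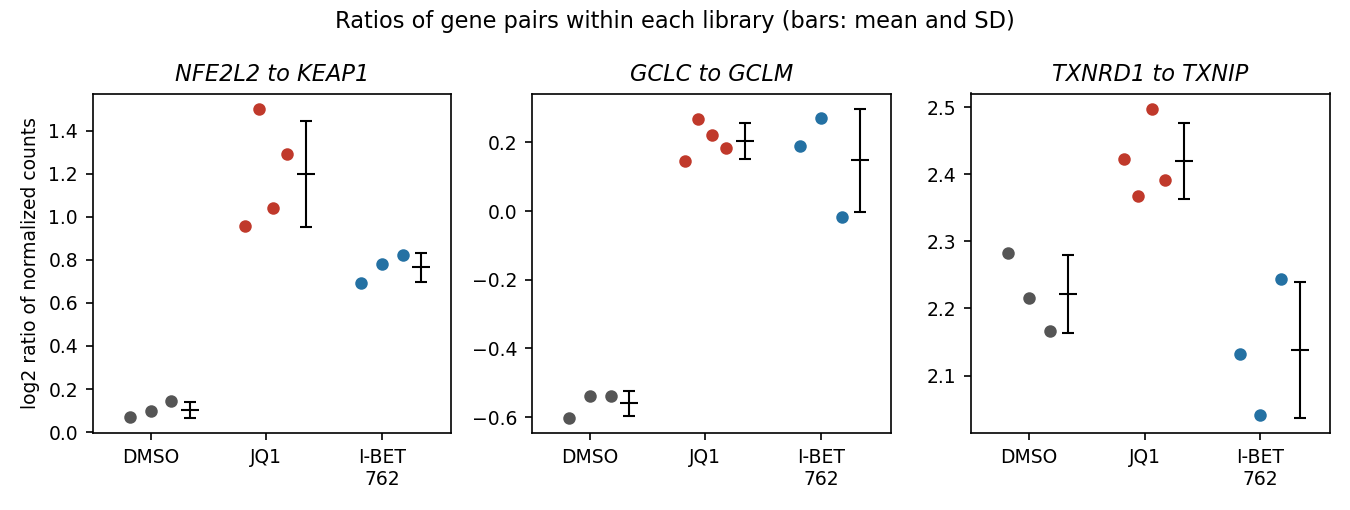
Log2 ratio of normalized counts (y axes, scales differ) of NFE2L2 to KEAP1, GCLC to GCLM and TXNRD1 to TXNIP within each library, with group mean and SD. The NFE2L2 to KEAP1 ratio separates all 3 groups, the GCLC to GCLM ratio separates treated from DMSO libraries, and the TXNRD1 to TXNIP ratio is highest in the JQ1 libraries.

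To compare the genes with each other, normalized counts were divided by exon length in kb, taken as the union of Gencode V44 exons, some of which these cells may not use. With DMSO the levels per kb fell in the order TXNRD1 3866 ± 118, GPX4 3859 ± 12.0, NQO1 3203 ± 189, TXNIP 1544 ± 95.7, KEAP1 1118 ± 7.65, HMOX1 775 ± 7.23, GCLM 428 ± 21.4, NFE2L2 287 ± 7.55, GCLC 183 ± 13.5 and SRXN1 3.97 ± 5.10 (SD, n = 3). TXNRD1 and GPX4 overlapped, and all other neighbours in this order were apart. HMOX1, below KEAP1 with DMSO, was above it with JQ1 at 1478 ± 52.4 against 638 ± 58.7 (SD, n = 4) and with I-BET 762 at 885 ± 13.9 against 726 ± 32.8 (SD, n = 3). GCLC, lowest with DMSO except for SRXN1, came level with NFE2L2, at 376 ± 24.5 against 349 ± 28.6 with JQ1 and 307 ± 16.6 against 294 ± 4.11 with I-BET 762, with overlapping ranges in both groups. The 5 symbols whose log2 values followed NFE2L2 most closely over the 10 libraries were OGFOD1 (Pearson r 0.987), ZNF562 (0.978), SLC38A2 (0.974), UHRF2 (0.973) and ARF4 (0.973). This is a description over libraries that share the same 3 treatments. NFE2L2 and all 5 symbols were highest in JQ1 replicate 18, the library with the highest total normalized count. The part of library scaling in these correlations was not tested.

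Another 83 genes of the pathway were listed by role, also with earlier results of these data known, and 77 of them were tested. AKR1B10 was not analysed here, and ME1, AKR1B1, AKR1C2, HMOX2 and SOD3 were too low. With JQ1 18 of the 77 rose and 17 fell, 45.5% in all beside the 36.1% of all symbols that were called (13.3% higher and 22.8% lower). With I-BET 762 11 rose and 15 fell, 33.8% beside 26.9% of all symbols (8.96% higher and 17.9% lower), and the falls with each compound were near the share of all symbols. Of the 77, 9 rose and 15 fell with both compounds, where 7.86% and 16.7% of all symbols did so, 11 were called with JQ1 alone, 2 with I-BET 762 alone and 0 in opposite directions. The median log2 fold change of the 77 was 0.25 with JQ1 and 0.12 with I-BET 762.

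**Figure D4:**
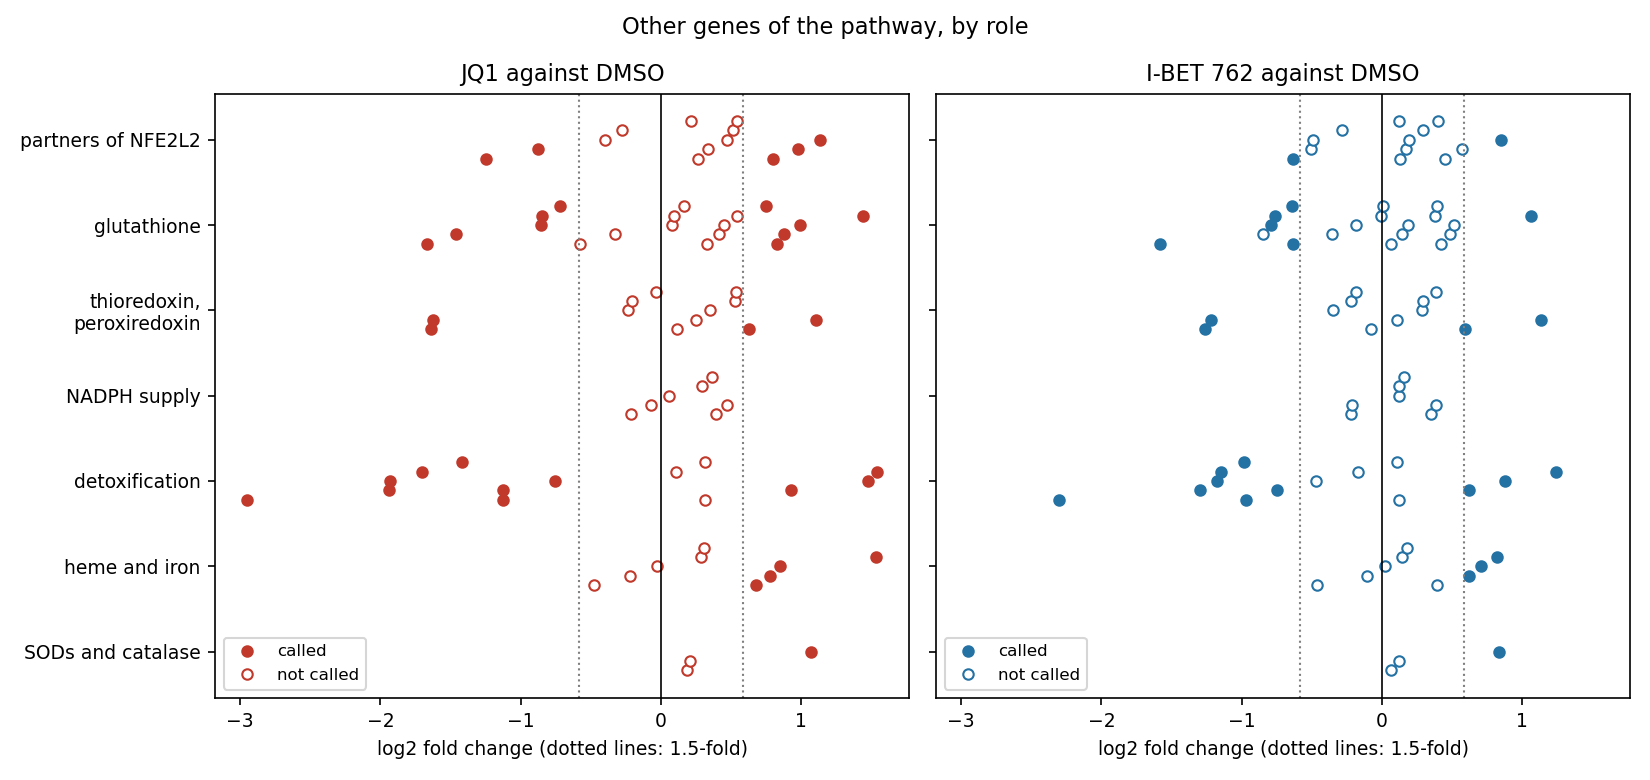
Log2 fold change (x axis) of 77 other genes of the pathway in 7 roles (rows), for JQ1 and I-BET 762 against DMSO. Filled points passed the test, open points did not, and dotted lines mark 1.5-fold. Detoxification genes lie on both sides, called heme and iron genes lie on the right, and NADPH genes lie within 1.5-fold.

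The plot of other pathway genes by role sets these calls out by list. Among 13 partners and repressors of NFE2L2, 3 rose and 2 fell with JQ1 (38.5%, beside 36.1% of all symbols), and 1 rose and 1 fell with I-BET 762 (15.4%, beside 26.9%). DPP3, a peptidase that binds KEAP1, rose by 0.80 and 0.85 with JQ1 and I-BET 762. NFE2L3, a transcription factor related to NFE2L2, fell by 0.88 and by 0.63, and 28.1% of its exon bases overlap HNRNPA2B1 on the other strand. The corresponding share was 22.4% for SQSTM1, 12.1% for PRDX2 and 9.0% for SLC7A11, genes described below. Among other changed genes named here it was 36.0% for ACTA2, 34.1% for TAGLN, 19.2% for AIFM2, 14.3% for HEXIM1 and EEFSEC and 9.5% for ARRDC2. For all of these, reads from antisense partners cannot be told apart without the strand setting. TAGLN also shares 38.1% of its exon bases with other genes on the same strand. Chosen after their values were seen, the small MAF gene MAFF (1.13) and the autophagy receptor SQSTM1 (0.98), which binds KEAP1, rose and the repressor BACH2 (-1.25) fell with JQ1, and none of these was called with I-BET 762 (0.45, 0.40 and -0.49).

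Of 19 glutathione genes 5 rose and 5 fell with JQ1 (52.6% called, beside 36.1% of all symbols), and 1 rose and 5 fell with I-BET 762 (31.6%, beside 26.9%). SLC7A11, the cystine importer that feeds glutathione synthesis, fell from 2633, 2594 and 2645 normalized counts with DMSO to 872, 829, 819 and 783.0 with JQ1 and to 856, 841 and 929 with I-BET 762. Its log2 fold change was -1.67 (adjusted p = 6.56e-13) and -1.58 (adjusted p = 9e-12), opposite in direction to GCLC. The mitochondrial glutaredoxin GLRX2 rose by 1.44 and 1.06. Chosen after its values were seen, the glutathione synthetase gene GSS rose by 0.99 with JQ1, and its value with I-BET 762 was 0.52, not called.

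In the thioredoxin and peroxiredoxin list 2 of 12 genes rose and 2 fell with each compound, 33.3% called, beside 36.1% of all symbols with JQ1 and 26.9% with I-BET 762. SESN1, a sestrin that acts with peroxiredoxins, rose by 1.11 with JQ1 and 1.14 with I-BET 762. PRDX2, a cytosolic peroxiredoxin, fell from between 7115 and 7287 normalized counts with DMSO to between 2212 and 2421 with JQ1 and between 2834 and 3116 with I-BET 762, a log2 fold change of -1.64 and -1.26. The second gene that fell in this list was TXNRD2, the mitochondrial thioredoxin reductase (-1.63 and -1.22), named after its values were seen because TXNRD1 rose. NADPH, the electron source of both reductases and of NQO1, is supplied by enzymes whose 7 tested genes stayed within 1.5-fold of DMSO, with log2 differences of -0.21 to 0.47 for JQ1 and -0.22 to 0.39 for I-BET 762. By adjusted p alone 5 of these 7 passed with each compound against DMSO, beside 71.7% of all symbols with JQ1 and 61.1% with I-BET 762.

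Of 14 detoxification genes tested, 3 rose and 8 fell with JQ1 (78.6% called, beside 36.1% of all symbols), and 3 rose and 7 fell with I-BET 762 (71.4%, beside 26.9%). More falls than rises were also called among all symbols, 22.8% against 13.3% with JQ1 and 17.9% against 8.96% with I-BET 762. PIR, an iron-binding nuclear protein, fell most, from 201, 189 and 173 normalized counts with DMSO to 19.8, 31.6, 16.0 and 29.4 with JQ1 and to 41.3, 35.1 and 35.4 with I-BET 762, a log2 fold change of -2.95 and -2.30. EPHX1, the microsomal epoxide hydrolase, rose by 1.48 and 1.24. AKR1C1, AKR1C3, TRIM16 and TRIM16L, which were among the genes that fell, have relatives of similar sequence. Exact copies were not searched for these genes, so the split of reads among such relatives is uncertain. Other genes share 23.5% of the exon bases of TRIM16 on the same strand.

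Of 9 heme and iron genes 4 were called higher with JQ1 (44.4% called, beside 36.1% of all symbols) and 3 with I-BET 762 (33.3%, beside 26.9%). None was called lower by limma with the fold threshold, but all treated libraries lay below DMSO for both biliverdin reductase genes, BLVRB and BLVRA. Of all symbols 34.3% lay wholly below DMSO with JQ1 and 36.2% with I-BET 762. By limma BLVRB was at -0.48 (adjusted p = 1.81e-05) and -0.46 (adjusted p = 8.14e-05), under 1.5-fold. BLVRA was at -0.22 (adjusted p = 0.0197) and -0.11 (adjusted p = 0.277). TFRC, the transferrin receptor that brings iron into the cell, had 15241, 17037 and 16557 normalized counts with DMSO, 46042, 52759, 45133 and 44759 with JQ1, and 28153, 28810 and 29378 with I-BET 762. It rose by 1.53 and 0.82, and it was also called between the compounds, 0.71 higher with JQ1. Chosen after their values were seen, the ferritin genes FTH1 (0.85) and FTL (0.78) rose with JQ1 and were not called with I-BET 762 (0.18 and 0.39). Both ferritin genes have many processed copies in the genome, and BEST1 covers 63.2% of the exon bases of FTH1 on the other strand, so their values are uncertain. Of 3 superoxide dismutase and catalase genes tested, 1 was called with each compound (33.3%, beside 36.1% of all symbols with JQ1 and 26.9% with I-BET 762). It was the mitochondrial SOD2, which rose by 1.07 and 0.84, and SOD1 and CAT were not called.

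Between JQ1 and I-BET 762, 9 of the 77 genes were called, 11.7% beside 5.31% of all symbols (1.73% higher and 3.59% lower). The count was 8 under most alternatives, in most of them with 5 higher and 3 lower. In the fit with all libraries OSGIN1, MAFF, CHAC1, FTH1 and TFRC were higher with JQ1, and BACH2, GPX8, AKR1C1 and PIR were lower. Also chosen after its values were seen, OSGIN1, an oxidative stress-induced growth inhibitor, rose with both compounds and was a further 0.67 higher with JQ1. CHAC1, which degrades glutathione, was 0.76 higher with JQ1 than with I-BET 762.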

How the data were processed

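RNA was extracted with Trizol and, per the labels, strand-specific total RNA libraries were sequenced. According to the submitters' processing notes and the methods of the study, reads were checked with FastQC 0.73, passed through Trimmomatic, mapped by HISAT2 2.2.1 to hg38 and counted with featureCounts 2.0.3 on Gencode genes. The authors used DESeq2 for normalization and left out outlier samples. Each deposited value is the log2 of a normalized count to which 1 was added, from 0 to 20.48, for 22784 symbols in 10 of 12 libraries. Undoing the log2 gave whole reads (within 0.01 read) for 99.67% to 99.72% of values in a library, and 65 symbols were not whole. The table holds 0 MT- symbols.

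A symbol was tested at a normalized count of at least 10 in at least 3 libraries. The 10 libraries were fitted in 1 linear model with limma 3.58.1 in R 4.3.3, with an intensity trend, and p-values were adjusted by Benjamini-Hochberg over 14839 symbols. A count test was not the main test because the deposited unit is log2, and limma-voom on the recovered reads was run as an alternative. The limma code was also tested on simulated data. Groups came from the treatment labels, which name no batch. By rule, the genes named are the 10 members, the largest rise and fall of each list among genes called with both compounds, HEXIM1, MYC, BRD2 and BRD3, and the 5 genes most like NFE2L2. Further list genes were picked for mention once their values were known. The members and lists were chosen with earlier results of these data known. A few items are not reported here. Tables were made with Python 3.11.15, pandas 2.3.3, numpy 2.4.6 and scipy 1.17.1. Gene positions, exon lengths and overlaps came from Gencode V44, and promoters came from RefSeq. The methods of the study name an earlier Gencode version for the counting, whose exons may differ. Alternatives covered the pseudocount, the filter, the scaling, the moderation, the groups fitted, the fold threshold and each library left out.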

Additional observations from a re-analysis of the deposited data

Results flagged for a closer look

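JQ1 replicate 18 stood apart from the other JQ1 libraries in its TXNIP level, at 11869 normalized counts against 9698 to 10029. The gap to the nearest library was 0.848 of the range of the group, above the 95% critical value of Dixon for 4 samples. The check was run on the values of 13 sets of 4 JQ1 libraries and 1 was past its critical value, where chance alone gives about 1 in 20. TXNIP rose with JQ1 with and without this library.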

How the results depend on the processing

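Of the values for the 10 genes, 551 kept their direction and side of the threshold under the alternatives, 9 lost the call and 7 changed sign. With a fold threshold of 2, the 10 genes gave 2 calls with JQ1, 0 with I-BET 762 and 0 between the compounds. The other pathway genes gave 19, 10 and 0, and the share of all symbols at that threshold is not given here. With no fold threshold the 10 genes gave 9 calls with JQ1, 6 with I-BET 762 and 9 between the compounds. The 77 other pathway genes gave 66, 57 and 40, where 71.7%, 61.1% and 27.3% of all symbols passed. Equal totals left 5 calls among the 10 genes with JQ1, 4 higher and 1 lower. Of 14839 symbols, 1222 were then called higher and 4217 lower. With I-BET 762 equal totals left 2 calls, 1 higher and 1 lower, where 994 symbols were called higher and 3064 lower. The share of higher genes among all called symbols went from 36.9% to 22.5% with JQ1. That share went from 33.3% to 24.5% with I-BET 762 and from 32.5% to 18% between the compounds. Equal totals moved the median of all symbols by -0.18, -0.10 and -0.09 in these comparisons. The cause of these moves was not tested. At equal totals the I-BET 762 difference was -0.0586 for NFE2L2 and for GCLM, and with 1 library left out GCLM ranged from -0.0197 (without I-BET 762 replicate 23) to 0.0779, with -0.0039 without DMSO replicate 13. SRXN1 ranged from -0.44 (without DMSO replicate 13) to 1.90 with JQ1, and from -1.58 to 0.76 (without DMSO replicate 15) with I-BET 762, with 0.21 without I-BET 762 replicate 22. The GCLC to GCLM log2 ratio, JQ1 against I-BET 762, ranged from -0.0261 (without I-BET 762 replicate 23) to 0.12. With 1 library left out at a time there were 6 to 7 calls with JQ1, 3 to 4 with I-BET 762 and 1 to 1 between the compounds among the 10 genes. Among the other pathway genes there were 34 to 35, 24 to 27 and 8 to 11. The shares of all symbols called in those fits are not given here. SRXN1 was not tested at a mean normalized count of at least 100. Alternatives for the ratios were chosen after seeing the data. No paired analysis was possible because the replicate numbers 13 to 24 are all different. Precision is limited by 3 or 4 libraries per group, and for SRXN1 by reads near the limit of 3.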

Other observations

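TXNIP belongs to the arrestin family and is driven by the glucose-sensing factor MondoA (MLXIP) with MLX, and 7 genes of this neighbourhood were tested. ARRDC4, another arrestin known as a MondoA target, had 302, 333 and 359 normalized counts with DMSO, 1768, 1784, 1587 and 1641 with JQ1, and 932, 995 and 909 with I-BET 762. It rose by 2.35 (limma with Benjamini-Hochberg adjustment, adjusted p = 1.76e-13) with JQ1 and by 1.51 (adjusted p = 1.76e-10) with I-BET 762, and it was 0.84 higher with JQ1 than with I-BET 762. The other arrestin genes did not share one direction, since ARRDC1 rose by 0.84 and 0.70, ARRDC2 fell by 0.59 and by 0.75, and ARRDC3 was not called (0.42 and -0.06). MLXIP, MLXIPL and MLX themselves were not called with either compound.

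GPX4 needs selenocysteine and shares the control of lipid peroxidation with other enzymes, and 11 genes of this kind were tested, of which 3 rose and 1 fell with each compound, 36.4% called, beside 36.1% of all symbols with JQ1 and 26.9% with I-BET 762. GCH1, the first enzyme of tetrahydrobiopterin synthesis, had 111, 130.4 and 110.1 normalized counts with DMSO, 690.1, 653, 584 and 549.7 with JQ1, and 306, 355 and 337 with I-BET 762. It rose by 2.39 and by 1.497, and it was 0.89 higher with JQ1 than with I-BET 762. SECISBP2 and EEFSEC, which place selenocysteine during translation, rose by 1.21 and 0.995 with JQ1 and by 1.07 and 0.70 with I-BET 762. AIFM2, which reduces coenzyme Q in membranes, fell by 0.60 and by 0.63. ACSL4, which loads polyunsaturated fatty acids into membrane lipids, was not called (-0.10 and -0.12). Apart from ARRDC4, ARRDC2, GCH1 and AIFM2, these genes were named after their values were seen.

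MYC rose by 1.0015 with JQ1 and its value with I-BET 762 was 0.54, not called. BRD3 (-0.33 and -0.37) was not called, and BRD2 was low and uneven, at 57.5 ± 82.6 normalized counts with DMSO (SD, n = 3).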
